A study of Bos taurus with 9 samples.

Results

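The UBE2 genes encode the E2 ubiquitin-conjugating enzymes and their close relatives that carry ubiquitin-like modifiers. They were taken here as every gene of the deposited bovine expression table whose RefSeq symbol starts with UBE2, which gave 33 of the 17852 genes. The reference table of the species lists 34 such symbols, and the 1 that was not among these genes, UBE2QL1, was not analysed here. All 33 passed the filter on low counts and were tested. RNA was measured in bovine oocytes at metaphase II, the stage at which a mature egg waits for fertilisation, in 9 libraries. There were 3 libraries of oocytes given microplastics together with taurine, a sulfur-containing amino acid, 3 of oocytes given microplastics alone and 3 of control oocytes. The labels give no dose, particle type, exposure time, animal or number of oocytes, and they do not say that libraries came from separate animals or cultures. The p-values therefore measure the spread between these libraries, which may be technical.

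Ubiquitin is first activated by an E1 enzyme, then passed to the active-site cysteine of an E2, and then placed on a protein with the help of an E3 ligase. With many E3 ligases, those of the RING type, the E2 largely sets whether a single ubiquitin or a chain is built. It also largely sets which lysine of ubiquitin links the chain. Some E2s thus mark proteins for the proteasome and others act in repair or signalling. Related E2s carry ubiquitin-like modifiers such as NEDD8 and ISG15. As background from other work on oocytes, degradation of cyclin B and securin by the anaphase-promoting complex, an E3 ligase that uses UBE2C and UBE2S, drives exit from both meiotic divisions, and maternal proteins are later cleared through the same system.

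In control oocytes the members spanned a wide range of levels. The TPM value (transcripts per 1000000, a share of the library per unit of transcript length, as deposited) was highest for UBE2D3, at 3493 ± 232 TPM with microplastics and taurine, 3426 ± 142 TPM with microplastics and 3814 ± 568 TPM in control (SD, n = 3 each). UBE2D3 is one of the broad-specificity E2s that serve many RING ligases. UBE2C and UBE2E1, at places 3 and 4 in control, had control levels of 1168 ± 102 and 709 ± 192 TPM. The lowest level in control was that of UBE2O, a large enzyme that combines E2 and E3 activity, at 1.90 ± 1.86 TPM with taurine, 3.22 ± 0.399 TPM with microplastics and 0.783 ± 0.764 TPM in control.

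**Figure D1:**
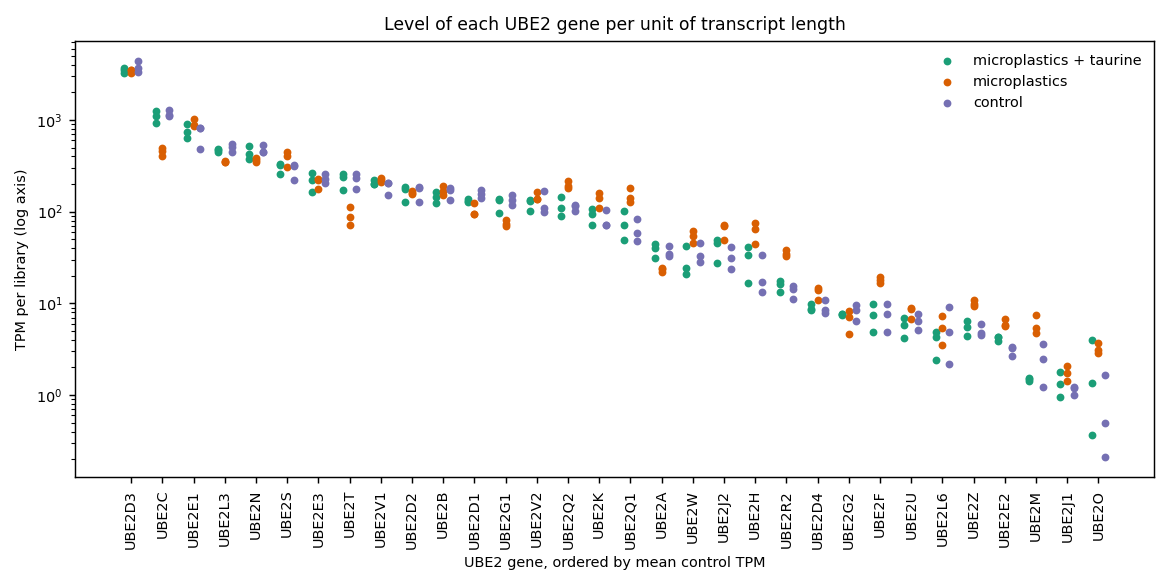
Deposited TPM (log axis) of 32 UBE2 genes in each library, genes ordered from left to right by mean control TPM, with microplastics plus taurine at the left, microplastics in the middle and control at the right of each gene. UBE2D3 stood highest in all 9 libraries, and the microplastics points of UBE2C, UBE2T and UBE2L3 lay below those of both other groups.

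The order of levels was not the same in every group. UBE2C was at place 4 in the microplastics group, with 452 ± 45.3 TPM, behind UBE2E1 with 920.5 ± 87.9 TPM, against place 3 in control. UBE2T was at place 8 with taurine, with 221 ± 43.6 TPM, at place 17 with microplastics alone, with 89.99 ± 19.8 TPM, and at place 9 in control, with 222 ± 41.5 TPM. Control means of UBE2E3, UBE2T and UBE2V1 were 231.5, 222 and 188.5 TPM, and the libraries of UBE2T overlapped those of both others. The lowest UBE2E3 library, at 207.65 TPM, lay just above the highest UBE2V1 library, at 206.91 TPM. Together the members took 0.889%, 0.966% and 0.907% of all reads in the taurine libraries, 0.814%, 0.836% and 0.837% in the microplastics libraries and 0.895%, 0.985% and 1% in the control libraries. Every microplastics library was below every other library by this share. UBE2D3 alone made up between 32.6% and 39.8% of these reads in any library.

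The libraries held 21.17 to 22.74 M estimated reads (M, 1000000), so that the limit that 3 reads allow lay at 0.132 to 0.142 CPM, the counts per 1000000 reads, and the fewest reads of any member in a library were 22. The scaling factors of the trimmed mean of M-values (TMM) were 0.841 to 0.958 in the taurine libraries, 1.214 to 1.253 in the microplastics libraries and 0.835 to 0.972 in the control libraries; values below are TMM-scaled CPM unless TPM is named. Of 15 oocyte markers in the table, all were detected in each group. They summed to 83500 to 110000 CPM with taurine, 39900 to 48100 CPM with microplastics and 92000 to 122000 CPM in control, and with microplastics 2 were called higher and 7 lower than in control. The 15 cumulus and granulosa markers summed to 516 to 566 CPM, 418 to 518 CPM and 511 to 611 CPM in the same order, and 5 of 12 tested were lower with microplastics. The 5 leukocyte markers summed to 5.07 to 6.13 CPM with taurine, 3.77 to 5.22 CPM with microplastics and 6.48 to 8.88 CPM in control, with 1 of 3 tested lower with microplastics. The 3 erythroid markers summed to 17.3 to 23.9 CPM, 10.6 to 17.7 CPM and 31.1 to 67.2 CPM in that order, and both that were tested were lower with microplastics (median log2 fold change -1.73). Only the summed oocyte markers were lower in every microplastics library than in all others, as were most called members. The cumulus and granulosa, leukocyte and erythroid ranges with microplastics overlapped those with taurine. The leukocyte and erythroid sums with taurine also lay below those in control. Stroma markers reached at most 21.4 CPM and endothelial markers at most 37.4 CPM in any library, and the ranges of both overlapped between all groups. The part of these marker levels in the results was not tested, and in bulk RNA fewer cells of a type and less RNA per cell cannot be told apart. Control library 3 correlated on average more with the taurine libraries than with its own group (r = 0.981 against 0.975), and taurine library 3 more with the control libraries than with its own (r = 0.98 against 0.971), across genes; the members whose call changed without both libraries are named with their values.

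The first comparison, microplastics against control, asked what the particles changed. Of the 33 members, 18 had an unadjusted p under 0.05, against 38.1% of the 13206 genes tested. At a Benjamini-Hochberg adjusted p under 0.05, 14 were called by edgeR's quasi-likelihood test (42.4%), against 24.3% of all genes. UBE2R2 was higher with microplastics (3.03%, against 9.68% of all genes), and 13 members were lower (39.4%, against 14.7% of all genes), among them UBE2A, UBE2B, UBE2C, UBE2D1, UBE2D2, UBE2D3, UBE2E3, UBE2G1, UBE2G2, UBE2L3, UBE2N and UBE2T. The libraries of the 2 groups did not overlap for 15 lower members and 7 higher ones, against 22.5% and 22.4% of all genes. The median log2 fold change was -0.26 over the members, with a range of -1.99 to 1.52, and 0.04 over all genes. Of the 10 members with the highest control TPM, 7 were lower and 3 were not called. Of the other 23, 6 were lower, 1 was higher and 16 were not called. The share called among all genes at similar levels was not computed, so no reading is drawn from this split.

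The second comparison, microplastics plus taurine against microplastics alone, asked what adding taurine to the particles changed. Here 16 members had an unadjusted p under 0.05, against 29% of all genes, and 11 members were called (33.3%, against 14.2% of all genes), 9 higher with taurine (27.3%, against 10.1%) and 2 lower (6.06%, against 4.13%). The groups did not overlap for 13 higher and 4 lower members, against 18.7% and 17.4% of all genes. The median log2 fold change was 0.18 over the members and -0.02 over all genes. Both comparisons use the same microplastics libraries, so their values are not independent of each other. Of the 13 members lower with microplastics, 9 were higher with taurine (among them UBE2A, UBE2C, UBE2D1, UBE2D3, UBE2G1, UBE2L3, UBE2N and UBE2T) and 4 were not called. The matching share among all genes lower with microplastics was not computed, so no reading is drawn from this count. UBE2R2 was called in both comparisons in opposite directions, UBE2M was called with taurine and not with microplastics, and 18 members were called in neither.

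**Figure D2:**
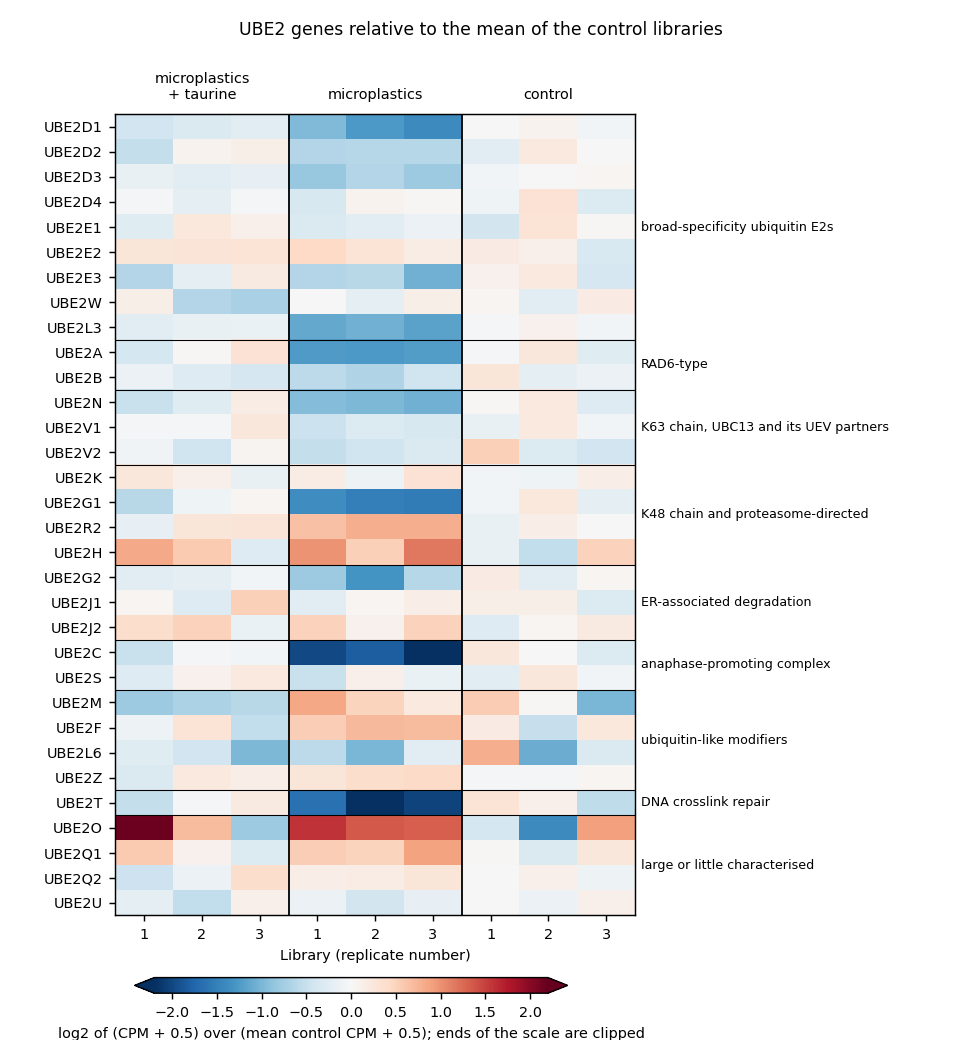
Log2 ratio of each library's CPM to the mean control CPM (0.5 added to both) for 32 UBE2 genes, grouped by role, with the libraries of microplastics plus taurine, microplastics and control from left to right. Blue cells, below the control mean, gather in the 3 microplastics columns for 12 genes called lower, with UBE2C and UBE2T the deepest.

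Transcript length and scaling moved with these counts. Over all genes, 26.1% of those with transcripts of 22 to 1084 nt were lower with microplastics (median log2 fold change -0.36), against 7.15% in the longest of 5 classes of equal size (median 0.28). The members were mostly short: 15 were in the shortest class, 6 of them lower, and 1 was in the longest. Among the members themselves, the 13 lower ones had a median length of 1179 nt and the 19 not called a median of 1107 nt. With the length trend removed, 11 members were lower and 3 higher with microplastics. With libraries scaled by their totals only, in place of TMM, the median of all genes moved to 0.52, and 7 members were lower and 10 higher. The members that gained a higher call with that scaling were UBE2E2, UBE2F, UBE2H, UBE2J2, UBE2K, UBE2M, UBE2Q1, UBE2Q2 and UBE2Z. Against microplastics alone, UBE2F, UBE2Q1, UBE2Q2 and UBE2Z gained a lower call with taurine. The 7 lower calls that held in all 17 alternative settings were UBE2A, UBE2C, UBE2D1, UBE2G1, UBE2L3, UBE2N and UBE2T, and the taurine calls that did so were the higher ones of UBE2A, UBE2C, UBE2G1, UBE2L3 and UBE2T.

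**Figure D3:**
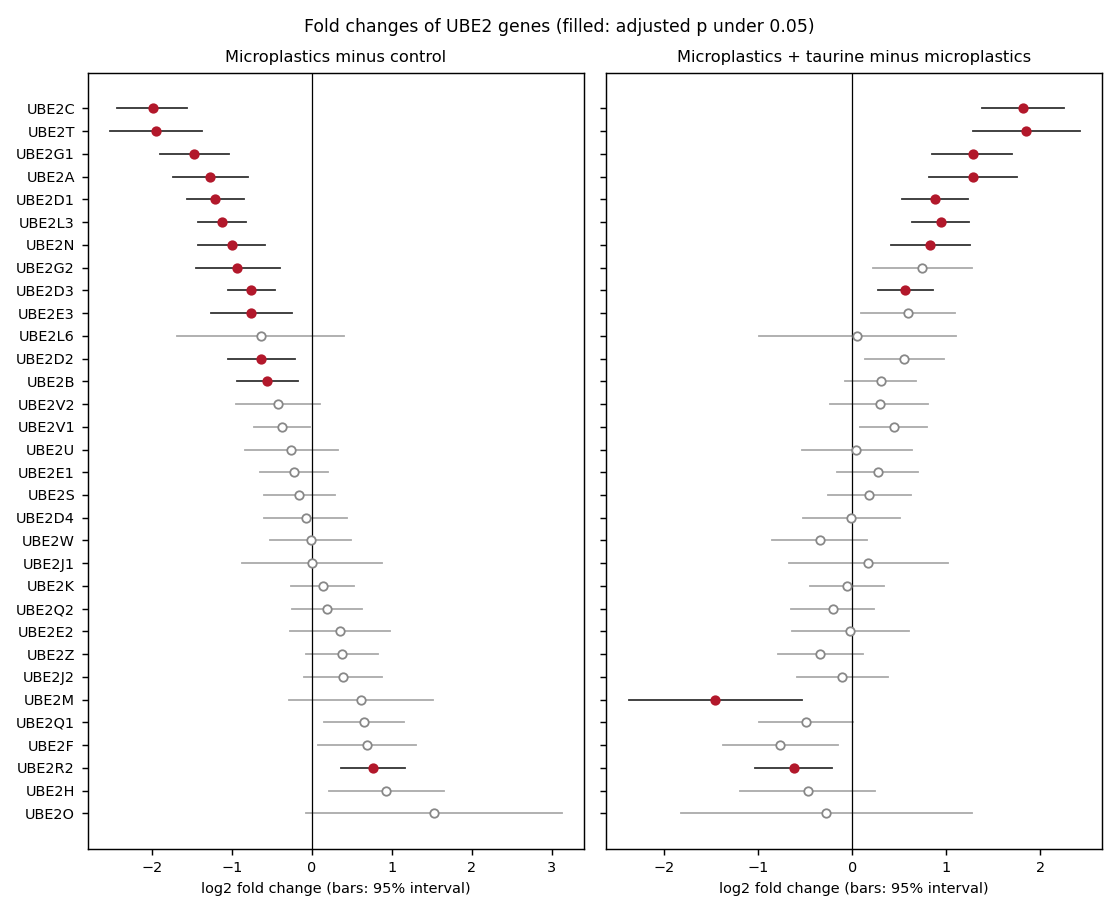
Log2 fold changes of 32 UBE2 genes with 95% intervals, for microplastics minus control at the left and microplastics plus taurine minus microplastics at the right, in 1 order of genes. Filled points passed an adjusted p of 0.05: 12 below and 1 above 0 at the left, 8 above and 2 below 0 at the right.

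The E2s of the anaphase-promoting complex came apart. UBE2C, which places the first ubiquitins on the complex's substrates, had 496, 683 and 667 CPM in the taurine libraries, 176, 198.5 and 149.8 CPM in the microplastics libraries and 827, 696 and 564 CPM in the control libraries. All 3 microplastics libraries were below all 6 others, with means of 615 ± 104, 175 ± 24.4 and 696 ± 131 CPM (SD, n = 3 each). UBE2C was 3.98-fold lower with microplastics than in control (log2 fold change -1.99 ± 0.20 SE, adjusted p = 6.08e-05) and 3.52-fold higher with taurine than with microplastics alone (1.82 ± 0.20, adjusted p = 0.000187), the lowest adjusted p of the members in both comparisons. Where a pair of log2 fold changes (± SE) follows a gene below, the first is microplastics minus control and the second is microplastics plus taurine minus microplastics. UBE2S, which lengthens those chains, had 199, 259 and 281 CPM with taurine, 172, 261 and 218 CPM with microplastics and 206, 286 and 233 CPM in control. Its groups overlapped and it was not called in either comparison (-0.16 ± 0.20, adjusted p = 0.607; 0.18 ± 0.20, adjusted p = 0.588). The difference between UBE2C and UBE2S can be read without any scaling between libraries, although a ratio does not remove the length trend. The length was 573 nt for UBE2C and 828 nt for UBE2S. There were 2.49, 2.64 and 2.37 reads of UBE2C per read of UBE2S in the taurine libraries, 1.02, 0.761 and 0.686 in the microplastics libraries and 4.01, 2.43 and 2.42 in the control libraries. The ratio was lowest in the 3 microplastics libraries; control library 1 stood above the other controls. This pair, like those below, was chosen after its values were seen, and no test was made.

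The list of broad-specificity E2s held 9 genes and also took in UBE2L3 and UBE2W, whose narrower uses are given below. Of the 9, 5 were lower with microplastics (UBE2D1, UBE2D2, UBE2D3, UBE2E3 and UBE2L3). Among these, UBE2D1, UBE2D3 and UBE2L3 were higher with taurine. UBE2L3, which serves HECT and RING-between-RING ligases through a thioester relay, had 369, 390.3 and 394 CPM with taurine, 200.5, 209 and 193 CPM with microplastics and 427, 466 and 419 CPM in control. Each group was tight and none overlapped another. It was lower with microplastics (-1.12 ± 0.14, adjusted p = 0.00025) and higher with taurine (0.94 ± 0.14, adjusted p = 0.00114). UBE2D1 had 157, 168 and 179 CPM with taurine, 107, 87.5 and 79.0 CPM with microplastics and 208, 222 and 201 CPM in control. Its taurine libraries lay between the other groups, without overlap (-1.21 ± 0.16, adjusted p = 0.000431 with microplastics; 0.88 ± 0.16, adjusted p = 0.00408 with taurine). With libraries scaled by totals only, the UBE2D1 taurine call was lost (0.44, adjusted p = 0.0598).

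UBE2D3, the most abundant member, had 3572, 3422 and 3516 CPM with taurine, 2248, 2558 and 2308 CPM with microplastics and 3861, 4046 and 4109 CPM in control. The taurine libraries again lay between the other groups (-0.76 ± 0.14, adjusted p = 0.00234; 0.56 ± 0.14, adjusted p = 0.0167). By TPM, the within-library share given above, the 3 group means of UBE2D3 lay closer together, and with scaling by totals neither call held (-0.28, adjusted p = 0.0964; 0.13, adjusted p = 0.447). The UBE2D3 taurine call was also lost without microplastics library 1 (0.51, adjusted p = 0.0838) or 3 (0.53, adjusted p = 0.0832). UBE2D2 had 188, 285 and 294 CPM with taurine, 173, 176 and 175 CPM with microplastics and 229, 313 and 269 CPM in control. The microplastics values sat within 3 CPM of each other, below all others (-0.63 ± 0.19, adjusted p = 0.0333; 0.55 ± 0.19, adjusted p = 0.0771 with taurine). The lower UBE2D2 call was lost without control library 2 (adjusted p = 0.131) or without any 1 of the microplastics libraries (adjusted p of 0.0921 to 0.103), and also with scaling by totals (-0.15, adjusted p = 0.532). Without taurine library 1 UBE2D2 was called higher with taurine (0.73, adjusted p = 0.013).

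UBE2E3, an E2 with an N-terminal extension, had 182, 248 and 328 CPM with taurine, 182, 185 and 137 CPM with microplastics and 304, 328 and 220.3 CPM in control. Taurine library 1 was level with the microplastics libraries, the other taurine libraries with the controls (-0.76 ± 0.23, adjusted p = 0.0335; 0.59 ± 0.23, adjusted p = 0.113). The lower UBE2E3 call was lost when control library 1 or 2 or any 1 of the microplastics libraries was left out (adjusted p of 0.0667 to 0.14), with scaling by totals (-0.26, adjusted p = 0.299) and with the length trend removed (-0.63, adjusted p = 0.0607). A replicate block in the fit also lost it (adjusted p = 0.0683). Without taurine library 1 UBE2E3 was called higher with taurine (0.78, adjusted p = 0.031). The other members of this role, UBE2D4, UBE2E1, UBE2E2 and UBE2W, were not called. UBE2E1, the highest of these by TPM, averaged 702 ± 123 CPM with taurine, 583 ± 38.8 CPM with microplastics and 682 ± 161 CPM in control. UBE2W, which places a single ubiquitin on the N-terminus of proteins, averaged 47.1 ± 16.5, 59.9 ± 6.5 and 60.5 ± 9.16 CPM in that order, and UBE2D4 averaged 10.6 ± 0.76, 10.7 ± 1.72 and 11.3 ± 2.65 CPM.

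UBE2A and UBE2B, the counterparts of yeast RAD6, act with RAD18 on PCNA and with RNF20 and RNF40 on histone H2B. UBE2A had 34.8, 46.0 and 56.4 CPM with taurine, 18.9, 18.5 and 19.0 CPM with microplastics and 44.2, 54.3 and 37.7 CPM in control. The microplastics libraries were nearly identical and below all others (-1.27 ± 0.21, adjusted p = 0.00163; 1.28 ± 0.21, adjusted p = 0.00233). Its deposited counts hold fractions, as did those of UBE2Z, so they are estimates that can include reads shared with another sequence, and its level is uncertain to that extent. For UBE2O, fractions occurred only in control library 3, where reads were split between its own transcripts (126.28 and 33.72). UBE2B had 69.6, 62.6 and 59.4 CPM with taurine, 51.0, 48.4 and 56.2 CPM with microplastics and 92.5, 66.8 and 70.1 CPM in control. The 3 groups were closer than for UBE2A and control library 1 was the highest (-0.56 ± 0.18, adjusted p = 0.0374; 0.30 ± 0.18, adjusted p = 0.282). The lower UBE2B call was lost without control library 1 or 2, without any 1 of the microplastics libraries or without taurine library 2 (adjusted p of 0.0518 to 0.168). It was also lost without the filter on low counts (adjusted p = 0.0532) and with a replicate block in the fit (adjusted p = 0.061). UBE2B is the shortest of the called members, at 456 nt, and its value was -0.07 with the length trend removed (adjusted p = 0.805) and -0.07 with scaling by totals (adjusted p = 0.78). UBE2A had 0.5, 0.736 and 0.95 reads per UBE2B read with taurine, 0.371, 0.382 and 0.338 with microplastics and 0.478, 0.813 and 0.537 in control, so that the microplastics libraries were the lowest.

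UBE2N builds K63-linked chains, a form used in DNA damage tolerance and signalling, as a dimer with the catalytically inactive UBE2V1 or UBE2V2. UBE2N had 692, 803 and 1090 CPM with taurine, 503, 488 and 465 CPM with microplastics and 986, 1126 and 800.2 CPM in control. The microplastics libraries were below all others, and the taurine and control libraries overlapped (-1.0 ± 0.19, adjusted p = 0.0036; 0.83 ± 0.19, adjusted p = 0.0143). The UBE2N taurine call was lost without any 1 of the microplastics libraries (adjusted p of 0.0555 to 0.0699) and with scaling by totals (0.38, adjusted p = 0.0826). Neither partner was called. UBE2V1 had 301, 302 and 371 CPM with taurine, 224, 253 and 243 CPM with microplastics and 277, 358 and 296 CPM in control (-0.37 ± 0.16, adjusted p = 0.113; 0.44 ± 0.16, adjusted p = 0.0944). UBE2V2 had 121, 93.6 and 132 CPM, 88.3, 93.3 and 102 CPM, and 183, 103 and 95.2 CPM in the same order of groups, with overlap and 1 high control. With scaling by totals only, the microplastics minus control values of UBE2V1 and UBE2V2 turned to 0.11 and 0.08.

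**Figure D4:**
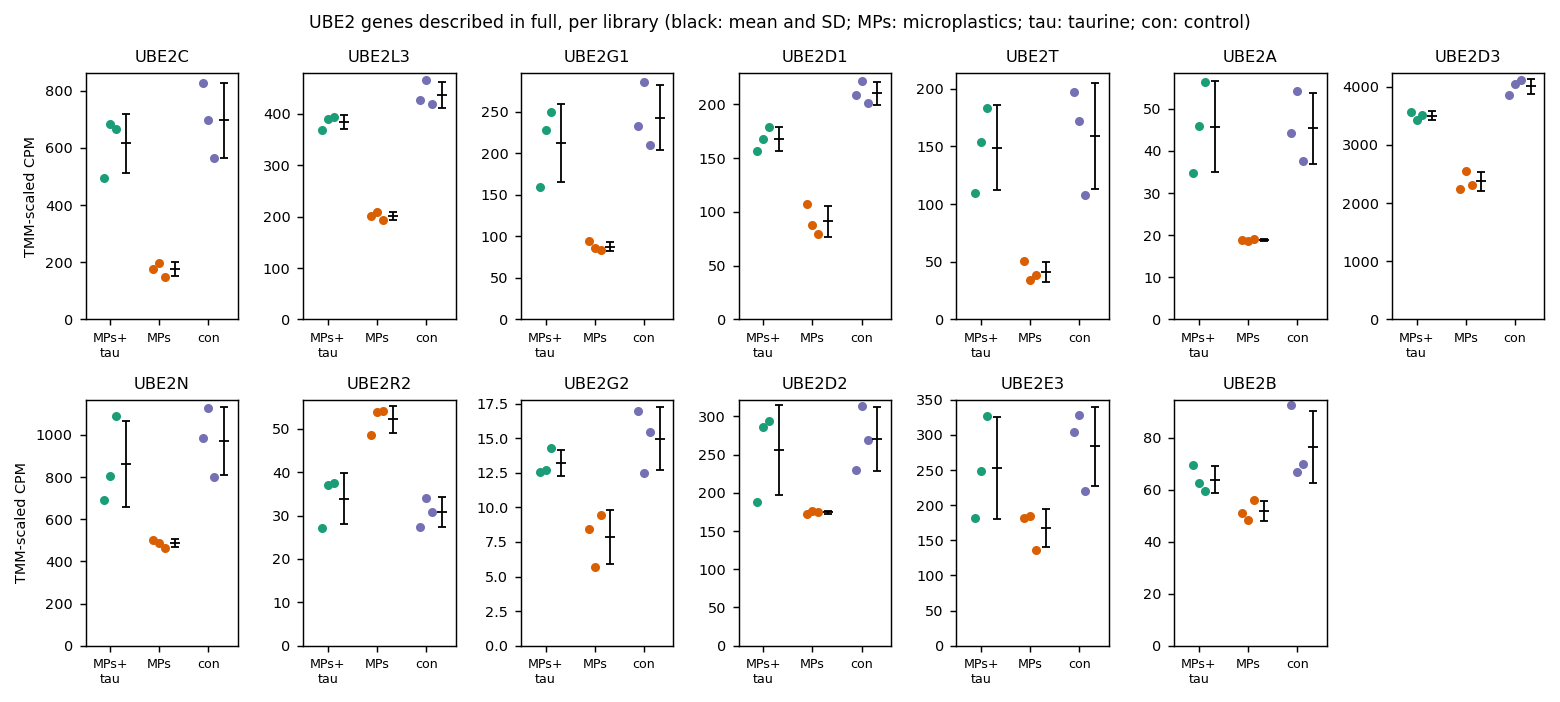
TMM-scaled CPM per library of 13 UBE2 genes described in full, with the groups microplastics plus taurine, microplastics and control from left to right and the mean and SD in black, each axis starting at 0. The 3 microplastics libraries are the lowest for UBE2C, UBE2L3, UBE2G1, UBE2D1, UBE2T, UBE2A, UBE2D3, UBE2N, UBE2G2, UBE2D2 and UBE2B and the highest for UBE2R2; for UBE2E3, 1 taurine library is level with them.

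The E2s that build K48-linked chains, the usual mark for the proteasome, moved in both directions. UBE2G1, an E2 of cullin-RING ligases, had 159.7, 228 and 249 CPM with taurine, 94.0, 85.5 and 83.4 CPM with microplastics and 232.5, 286 and 211 CPM in control. The microplastics libraries were below all others (-1.47 ± 0.20, adjusted p = 0.000406; 1.28 ± 0.20, adjusted p = 0.00137). UBE2R2, also known as CDC34B and likewise an E2 of cullin-RING ligases, had 27.0, 37.0 and 37.5 CPM with taurine, 48.6, 54.0 and 54.0 CPM with microplastics and 27.3, 34.1 and 30.9 CPM in control. Its microplastics libraries were above all others (0.76 ± 0.19, adjusted p = 0.0122; -0.62 ± 0.18, adjusted p = 0.0417). The higher UBE2R2 call was lost without control library 1 (0.68, adjusted p = 0.0565), and the lower call with taurine was lost when any 1 of control library 2, the microplastics libraries or the taurine libraries was left out (adjusted p of 0.0579 to 0.118). That taurine call was also lost without the filter on low counts (adjusted p = 0.0557). There were 0.169, 0.162 and 0.151 UBE2R2 reads per UBE2G1 read with taurine, 0.516, 0.631 and 0.648 with microplastics and 0.118, 0.119 and 0.147 in control.

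**Figure D5:**
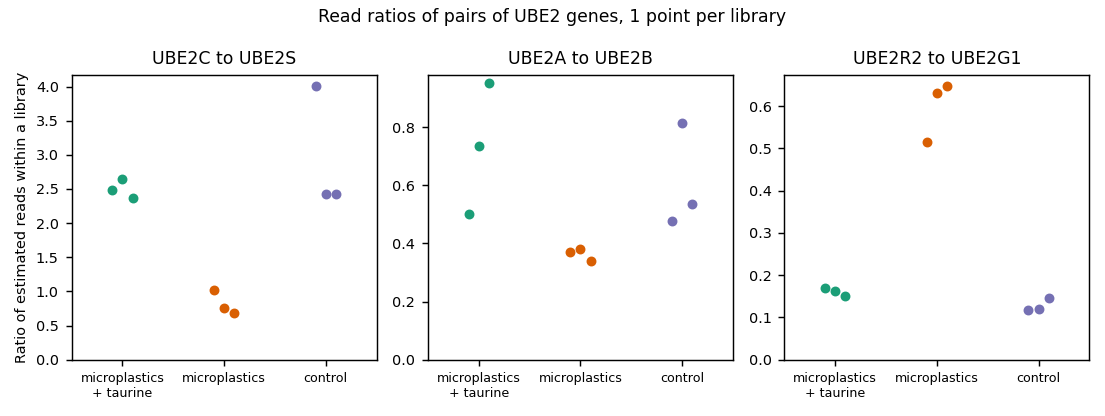
Ratios of estimated reads within a library, 1 point per library, for UBE2C to UBE2S, UBE2A to UBE2B and UBE2R2 to UBE2G1, with microplastics plus taurine, microplastics and control from left to right and each axis starting at 0. The 3 microplastics points lie below the other 6 for the first 2 pairs and above them for UBE2R2 to UBE2G1, at 0.516 to 0.648.

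The other E2s of this role, UBE2H and UBE2K, were not called. UBE2H, the E2 of the CTLH ligase complex, had 35.1, 29.1 and 15.9 CPM with taurine, 39.1, 28.1 and 44.1 CPM with microplastics and 17.3, 13.2 and 27.8 CPM in control (0.93 ± 0.33, adjusted p = 0.0586; -0.47 ± 0.33, adjusted p = 0.362). Within both the taurine and the control groups library 3 stood apart from the other libraries in opposite directions. UBE2H was called higher with microplastics without control library 3 (1.30, adjusted p = 0.0126), taurine library 1 (adjusted p = 0.0497) or taurine library 3 (adjusted p = 0.0253), and without control library 3 and taurine library 3 together (1.30, adjusted p = 0.00122). DESeq2 also called UBE2H higher with microplastics (adjusted p = 0.0288), as did edgeR on the 2 compared groups alone (adjusted p = 0.0312). The UBE2H call came too with the length trend removed (1.15, adjusted p = 0.0341) and with scaling by totals (1.39, adjusted p = 0.0177). UBE2K averaged 53.6 ± 7.84 CPM with taurine, 55.8 ± 8.29 CPM with microplastics and 50.8 ± 4.92 CPM in control.

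Of the E2s of degradation at the endoplasmic reticulum, UBE2G2 was called and UBE2J1 and UBE2J2, which are anchored in the membrane, were not. UBE2G2 had 12.6, 12.7 and 14.3 CPM with taurine, 8.41, 5.72 and 9.46 CPM with microplastics and 16.9, 12.5 and 15.4 CPM in control. The microplastics libraries were below all others (-0.93 ± 0.24, adjusted p = 0.0173; 0.74 ± 0.24, adjusted p = 0.06). The UBE2G2 call was lost without control library 1 (adjusted p = 0.0659), microplastics library 1 (adjusted p = 0.0504) or microplastics library 2 (adjusted p = 0.0749), and with scaling by totals (-0.44, adjusted p = 0.181). DESeq2 called UBE2G2 higher with taurine (adjusted p = 0.0187). UBE2J2 averaged 37.1 ± 8.47 CPM with taurine, 40.01 ± 6.48 CPM with microplastics and 30.6 ± 5.14 CPM in control, and UBE2J1, at place 32 of 33 by control TPM, averaged 1.64 ± 0.603, 1.45 ± 0.255 and 1.46 ± 0.312 CPM in that order.

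UBE2M and UBE2F transfer NEDD8, the modifier that activates cullins. UBE2M, with 28 to 163 reads per library, had 1.62, 1.78 and 1.92 CPM with taurine, 6.15, 4.67 and 3.79 CPM with microplastics and 4.96, 3.28 and 1.33 CPM in control. It was lower with taurine than with microplastics (-1.46 ± 0.42, adjusted p = 0.0385), while its control libraries spanned both groups (0.61 ± 0.41, adjusted p = 0.29). The UBE2M call was lost when any 1 of control library 2, the microplastics libraries or the taurine libraries was left out (adjusted p of 0.0516 to 0.137). A replicate block in the fit also lost it (adjusted p = 0.0622). With scaling by totals UBE2M was called higher with microplastics than in control (1.13, adjusted p = 0.0416). UBE2M ranks after the 14 members with the smallest adjusted p and was added after its values were seen. UBE2F averaged 7.95 ± 2.42, 13.5 ± 0.901 and 8.40 ± 2.3 CPM with taurine, with microplastics and in control. It was not called (adjusted p = 0.0952 with taurine and 0.097 with microplastics). Without control library 3 and taurine library 3 together, UBE2F was called higher with microplastics (0.84, adjusted p = 0.0276). That call also came with the length trend removed and with scaling by totals. With taurine, UBE2F was called lower by DESeq2, with the length trend removed and with scaling by totals. UBE2L6, the E2 of ISG15, and UBE2Z, the E2 of FAT10, were not called either. UBE2L6 averaged 3.05 ± 0.871 CPM with taurine, 2.94 ± 0.917 CPM with microplastics and 4.60 ± 3.34 CPM in control, and UBE2Z averaged 15.04 ± 2.93, 19.1 ± 1.07 and 14.7 ± 0.476 CPM in that order.

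UBE2T, which acts with the ligase FANCL on FANCD2 in repair of DNA crosslinks, had 109.9, 154 and 183 CPM with taurine, 50.9, 34.6 and 38.3 CPM with microplastics and 197, 172 and 108 CPM in control. The taurine and control libraries overlapped, and all 6 were at least as high as 108 CPM. UBE2T was 3.85-fold lower with microplastics (-1.95 ± 0.26, adjusted p = 0.000431) and 3.61-fold higher with taurine (1.85 ± 0.26, adjusted p = 0.000833), close in size to UBE2C. FANCL, its partner, averaged 187.6 ± 14.2 CPM with taurine, 92.0 ± 1.21 CPM with microplastics and 194 ± 28.4 CPM in control, and was also lower with microplastics (-1.08, adjusted p = 0.000782).

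The large or little characterised members, UBE2O, UBE2Q1, UBE2Q2 and UBE2U, were not called. UBE2O had 19.1, 6.61 and 2.02 CPM with taurine, 12.7, 10.6 and 10.3 CPM with microplastics and 2.83, 1.16 and 7.63 CPM in control. The spread in the taurine and control groups was wide: library 3 was the lowest with taurine and the highest in control (1.52 ± 0.73, adjusted p = 0.148 with microplastics; -0.28 ± 0.70, adjusted p = 0.827 with taurine). Without control library 3 UBE2O was called higher with microplastics (2.50, adjusted p = 0.0413), as it was without taurine library 3 as well (2.51, adjusted p = 0.00196). UBE2Q1 had 278, 199 and 151 CPM with taurine, 273, 263 and 346 CPM with microplastics and 190.4, 149.6 and 221 CPM in control (0.65 ± 0.23, adjusted p = 0.0581; -0.49 ± 0.23, adjusted p = 0.181). UBE2Q1 was called higher with microplastics without control library 3 (adjusted p = 0.0311), taurine library 1 (adjusted p = 0.0275) or taurine library 3 (adjusted p = 0.0292) and without the library 3 of both groups (0.81, adjusted p = 0.00751), and lower with taurine without taurine library 1 (-0.75, adjusted p = 0.0376). DESeq2 also called UBE2Q1 higher with microplastics (adjusted p = 0.0495), as did edgeR on the 2 compared groups alone (adjusted p = 0.0228). Scaling by totals gave the same UBE2Q1 call (1.12, adjusted p = 0.00922) and a lower one with taurine (-0.91, adjusted p = 0.0318). UBE2Q2 averaged 156 ± 47.6 CPM with taurine, 181 ± 9.04 CPM with microplastics and 159 ± 12.9 CPM in control. UBE2U averaged 4.78 ± 1.2, 4.63 ± 0.507 and 5.53 ± 0.493 CPM in that order. Over the 18 members called in neither comparison, log2 fold changes ran from -0.64 to 1.52 with microplastics and from -0.77 to 0.44 with taurine.

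The third comparison, microplastics plus taurine against control, asked what still differed. The edgeR test called 0 of the 33 members, against 0.00757% of all genes, and DESeq2 called 0. At an unadjusted p under 0.05 there were 0 members, against 5.69% of all genes, and the smallest adjusted p of a member was 0.855. The libraries did not overlap for UBE2E2, at 3.33, 3.38 and 3.39 CPM with taurine and 3.10, 2.91 and 2.00 CPM in control, and for UBE2D1, UBE2D3 and UBE2L3, whose taurine libraries were all below the controls; 4.58% of all genes were higher and 4.57% lower in this way. A missed threshold does not show that the groups were alike, and the intervals give the room left. For 28 members the 95% interval of the log2 difference lay within 1 of 0. UBE2C differed by -0.18 (-0.60 to 0.24), UBE2T by -0.09 (-0.65 to 0.46) and UBE2R2 by 0.14 (-0.27 to 0.54). The wider intervals were those of UBE2H, UBE2J1, UBE2L6, UBE2M, at -0.84 (-1.77 to 0.08), and UBE2O, at 1.25 (-0.35 to 2.84). Without control library 3 and taurine library 3 together, UBE2H (1.08, adjusted p = 0.0316) and UBE2O (2.69, adjusted p = 0.0139) were called higher with taurine. In that setting 783 genes were called in all, against 1 in the reported fit, so the near absence of calls depended on these libraries.

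The genes around the E2s in the cascade were counted in lists of pathway members. Beside these counts stand the shares of all genes tested: 9.68% were higher and 14.7% lower with microplastics, and 10.1% were higher and 4.13% lower with taurine. Of 8 E1 genes tested, 2 were higher and 2 lower with microplastics, and 4 were higher and 1 lower with scaling by totals. UBA1, the main E1 of ubiquitin, averaged 85.0 ± 11.2 CPM with taurine, 171 ± 8.6 CPM with microplastics and 77.9 ± 11.5 CPM in control, and was higher with microplastics (1.13, adjusted p = 0.000836), opposite to most called E2s. UBA2, a subunit of the SUMO E1, was higher too (0.52, adjusted p = 0.0291), a call lost without control library 1 or 2 or any 1 of the microplastics libraries (adjusted p of 0.0599 to 0.112) and with the length trend removed (0.41, adjusted p = 0.0686). A replicate block in the fit also lost the UBA2 call (adjusted p = 0.0576). UBA3 and NAE1, the subunits of the NEDD8 E1, were both lower. UBA3 averaged 79.1 ± 12.7 CPM with taurine, 39.5 ± 3.9 CPM with microplastics and 84.5 ± 12.8 CPM in control (-1.10, adjusted p = 0.0017). NAE1 averaged 534 ± 132, 318 ± 8.19 and 566 ± 126 CPM in that order (-0.83, adjusted p = 0.0152), and its call was lost without control library 2 or microplastics library 1 or 3 (adjusted p of 0.0598 to 0.0724) and with scaling by totals (-0.34, adjusted p = 0.149). With taurine, 2 E1 genes were higher and 1 lower than with microplastics alone.

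Of 17 ubiquitin and ubiquitin-like genes tested, 9 were lower and 0 higher with microplastics (median log2 fold change -0.85), and 7 were higher and 0 lower with taurine (median 0.81). FAU, a ubiquitin-like protein fused to a ribosomal protein, was lower (-2.02, adjusted p = 0.01), a value set by control library 1 at 689 CPM; without that library it was -1.02 (adjusted p = 0.00743), and then FAU was also called higher with taurine (0.82, adjusted p = 0.0134). With the length trend removed, 6 of the 17 were lower (median -0.54), and with scaling by totals 5 were lower and 1 higher. Of 8 genes with an E2 or related fold and another name, 2 were lower and 0 higher with microplastics (median -0.03), whereas with scaling by totals 0 were lower and 3 higher (median 0.46). AKTIP was lower (-0.86, adjusted p = 0.00978), a call lost with scaling by totals (-0.37, adjusted p = 0.0901), and TSG101, a sorting protein with an inactive E2 fold, was lower (-0.60, adjusted p = 0.0494). The TSG101 call was lost without control library 1 or 2, any 1 of the microplastics libraries or taurine library 2 (adjusted p of 0.065 to 0.177), with scaling by totals (-0.12, adjusted p = 0.622) and with the length trend removed (-0.49, adjusted p = 0.0887). It was also lost without the filter on low counts (adjusted p = 0.0535).

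Of 16 genes of the anaphase-promoting complex, 1 was higher and 3 lower with microplastics (median -0.21), and 4 were higher and 1 lower with taurine (median 0.26); scaling by totals gave 4 higher and 3 lower with microplastics. ANAPC10, a subunit that helps to bind substrates, had 84.8, 91.2 and 94.1 CPM in the taurine libraries, 39.4, 38.5 and 38.3 CPM in the microplastics libraries and 103, 101 and 84.7 CPM in the control libraries (-1.31, adjusted p = 0.000194). ANAPC16 was lower (-1.53, adjusted p = 0.000766), and ANAPC7 was higher (1.43, adjusted p = 0.00247). Of 23 genes of cullin-RING ligases and neddylation, 2 were higher and 3 lower with microplastics (median 0.16), and with scaling by totals 11 were higher and 1 lower (median 0.59). SKP1, the adaptor of cullin 1 ligases, averaged 4621 ± 620 CPM with taurine, 2549 ± 246 CPM with microplastics and 5732 ± 1160 CPM in control (-1.17, adjusted p = 0.00112). RBX1, the RING subunit of those ligases, was lower (-0.73, adjusted p = 0.0413), a call lost when control library 1 (where it was -0.47) or 2, a microplastics library or taurine library 2 was left out (adjusted p of 0.0564 to 0.193), with scaling by totals (-0.23, adjusted p = 0.411) and with the length trend removed (-0.59, adjusted p = 0.0695). A replicate block also lost the RBX1 call (adjusted p = 0.0747). CAND2 was higher (1.03, adjusted p = 0.00891), and BTRC was higher (0.64, adjusted p = 0.0182), a call lost without control library 2 or microplastics library 1 or 3 (adjusted p of 0.054 to 0.0787). With taurine, 1 gene of this list was higher and 3 lower, and 1 higher and 8 lower with scaling by totals.

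Of 31 HECT and RING-between-RING ligases, 6 were higher and 1 lower with microplastics (median 0.30). With taurine, 0 were higher and 5 lower (median -0.29). With the length trend removed, 4 were higher and 3 lower with microplastics (median 0.07). The taurine counts were then 0 higher and 0 lower (median -0.05). With scaling by totals, 16 were higher and 0 lower with microplastics, and 0 were higher and 17 lower with taurine. HECTD3 (1.69, adjusted p = 0.0114) and UBE3B (1.06, adjusted p = 0.00403) were higher, and HERC3 was lower (-0.51, adjusted p = 0.035). The HECTD3 call was lost without control library 1 (adjusted p = 0.0519), and that of HERC3 when a single control or microplastics library was left out, whichever it was (adjusted p of 0.0543 to 0.138), and with scaling by totals (-0.02, adjusted p = 0.915). Without the filter on low counts the HERC3 call was lost as well (adjusted p = 0.0535). Of 40 RING and U-box ligases known as partners of UBE2 genes, 8 were higher and 2 lower with microplastics (median 0.19), and 2 were higher and 1 lower with taurine (median -0.21). With microplastics this list had 25 higher and 2 lower genes with scaling by totals and 4 higher and 2 lower with the length trend removed. With taurine it had 2 higher and 18 lower genes with scaling by totals and 2 higher and 0 lower with the length trend removed. SHPRH (1.21, adjusted p = 0.0102) and RNF20 (1.19, adjusted p = 0.0222) were higher. RNF20 places ubiquitin on histone H2B with UBE2A or UBE2B, which were both called lower. The UBE2B call held in 7 of the 17 alternative settings. The SHPRH call was lost without microplastics library 3 (adjusted p = 0.0545), and that of RNF20 without control library 1 or 2 or microplastics library 1 or 3 (adjusted p of 0.07 to 0.0898). RNF168, which extends ubiquitin marks on histones at DNA breaks, averaged 29.3 ± 4.23 CPM with taurine, 10.9 ± 1.49 CPM with microplastics and 24.5 ± 1.80 CPM in control, and was lower with microplastics (-1.16, adjusted p = 0.00197), as was FANCL. No gene of these lists was called by edgeR between microplastics plus taurine and control.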

How the data were processed

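Per the file headers, the authors deposited, for each transcript and library, an estimated count, an FPKM and a TPM value, and normalised signal per library with group averages; the FPKM served here to derive transcript lengths (from at least 20 reads and an FPKM of at least 0.5), and the signal columns were not used. The sources used here name no aligner, counter, annotation or genome build, so no coordinates are printed. Estimated counts of 22590 transcripts were summed per gene (17852 genes), rounded, and paired with RefSeq symbols by gene ID (95.2% matched); 35% of transcripts hold a fractional count.

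Tests used edgeR 4.0.16 in R 4.3.3: filterByExpr (minimum count 10, total 15), TMM factors, robust quasi-likelihood fits of all 9 libraries with a coefficient for each group, and p-values adjusted over 13206 genes (Benjamini-Hochberg). SEs and 95% intervals come from the fit; the calculation was tested on simulated data. Levels between genes use deposited TPM. The members and lists were chosen with earlier results of these data known, and no list was tested as a set. Every UBE2 gene was counted. Values per library were planned for the called members, up to the 14 with the smallest adjusted p; others given were added after their values were seen. A member and 1 pathway gene that these rules pick are counted but not reported here by name, nor drawn. Of each pathway list, up to 2 called genes per direction with the largest fold change with microplastics are named. There were 17 alternatives, among them DESeq2 1.42.0, other scalings, a length-trend offset (lowess span 0.3; lengths for 92.6% of tested genes), a replicate block and each library left out.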

Additional observations from a re-analysis of the deposited data

How the results depend on the processing

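With 3 libraries a group, calls near the threshold moved between settings, and the cause was not tested except where named. Over 91 gene values and 17 alternatives, 1358 of 1547 kept direction and side of the threshold, 143 lost a call, 30 gained one and 16 changed sign, 0 of them a called value. Members higher with microplastics than in control, 1 in the reported analysis, were 10 with scaling by totals, 3 by DESeq2, 3 from the 2 compared groups alone, 3 with the length trend removed, 5 without control 3 and taurine 3, and 0 to 4 with 1 library left out; members lower, 13, were 7 with scaling by totals and 9 to 13 with 1 library left out. With taurine, 9 higher members were 5 with scaling by totals and 7 to 11 with 1 library left out; 2 lower ones were 6 with scaling by totals, 1 without the filter, 1 with the replicate block and 0 to 2 with 1 library left out. Against control, taurine gave 0 higher members, or 2 without control 3 and taurine 3.

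Scaling by totals moves all genes (median 0.52 with microplastics and -0.45 with taurine, against 0.04 and -0.02), and by that construction the member median turned to 0.22 with microplastics and -0.26 with taurine. It also turned UBE2S (0.32), UBE2V1 (0.11) and UBE2V2 (0.08) with microplastics, and UBE2B (-0.13), UBE2S (-0.26), UBE2V1 (0.00), UBE2V2 (-0.15) and HERC3 (-0.24) with taurine. With the length trend removed, UBE2S was 0.09 with microplastics and -0.04 with taurine, UBE2B -0.05 and the member median -0.04 with taurine. Without control 3 and taurine 3, UBE2O was 0.19 with taurine. With 1 library left out, UBE2S with microplastics ran from -0.30 to 0.00, UBE2O with taurine from -1.37 to 0.20, UBE2T against control from -0.31 to 0.09 and the member median against control from -0.19 to 0.02. Called genes in all, 3213 with microplastics, were 4880 with scaling by totals, 5110 without control 3 and taurine 3, and 1715 to 4151 with 1 library left out; with taurine, 1878, they were 3089 with scaling by totals and 888 to 2146; against control, 1, they were 5 by DESeq2, 783 without control 3 and taurine 3, 0 from the 2 groups alone or with the replicate block, and 0 to 2 with 1 library left out. Deviations of same-numbered libraries correlated at -0.55 to 0.32 and of others at -0.4 to 0.5. Between microplastics and control, same-numbered libraries correlated at 0.07, 0.24 and 0.32 and others at -0.29 to 0.13. Same-numbered libraries correlated at -0.22, -0.09 and -0.55 between taurine and control, and at 0.02, -0.09 and -0.15 between taurine and microplastics. With 3 libraries a group, these values cannot show whether replicate numbers pair the samples. The replicate block gave 11 members lower and 1 higher with microplastics (UBE2B and UBE2E3 lost) and 9 higher and 1 lower with taurine (UBE2M lost).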
